A study of Mus musculus with 12 samples.

Results

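Genomic imprinting leaves a gene active mainly from the copy inherited from one parent. Imprinted genes lie in clusters, each under a control region whose DNA methylation is set in the germ line, and many clusters hold a long non-coding RNA that is transcribed from the unmethylated copy and silences its neighbours in cis. In brain, imprinted genes are known for roles in growth, metabolism and neuronal function, and Ube3a, the ubiquitin ligase lost in Angelman syndrome, lies beside Snrpn and Snhg14, whose paternal loss underlies Prader-Willi syndrome. The set described here was a list of 47 imprinted genes in 19 clusters, 39 of them protein coding, out of 55413 annotated genes. All 47 were found by symbol in the GRCm38 annotation, and 17 lay on chromosome 7.

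Acetylation of lysine 12 of histone H4 (H4K12ac), a mark found at active promoters, was measured by ChIP-Seq in neuronal nuclei that had been sorted from the whole hippocampus. The 5 Tip60cKO mice carried Tip60 f/f alleles and the tamoxifen-inducible CaMKCreERT2 driver, which acts in excitatory forebrain neurons only, and the 5 control mice were Tip60 f/f without the driver. Mice of both genotypes received tamoxifen and were taken 10 days after the last injection; the labels give males of 3 months on C57BL/6J, while the methods of the study name C57BL/6N and either sex. One input library per genotype, pooled from its mice, served as the background of all 5 libraries of that genotype, so that genotype and input cannot be told apart. Because Cre was restricted to excitatory neurons, a sorted nucleus of another neuronal type kept TIP60, and a change in fewer nuclei cannot be told apart from a smaller change in all.

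The libraries held 22864189 to 37923809 tags and the peak lists 64245 to 136409 peaks, Tip60cKO 5 being the smallest in both. TSS peaks were present in all 10 lists at 6 of 6 general neuronal markers and 4 of 4 excitatory markers. Their summed scores ranged from 485 to 512 and from 334 to 358 in Tip60cKO libraries, and from 510.0 to 535 and from 338 to 361 in control libraries. None of the 10 was called by limma, but Syt1 (-6.51 ± 2.17, adjusted p = 0.314) and Camk2a (7.31 ± 2.54, adjusted p = 0.344) had an unadjusted p below 0.05. Of the other cell types, 0 of 3 inhibitory, 0 of 4 astrocyte, 0 of 4 microglia, 0 of 2 endothelial and 1 of 4 oligodendrocyte markers (Mbp) had a peak in all lists. The astrocyte marker Gfap had a TSS peak in 4 Tip60cKO and 5 control lists. It scored 75.9 ± 7.6 (SD, n = 5) in control libraries, beside 77.8 ± 5.4 for the neuronal marker Syp. Slc1a3, also of astrocytes, had a peak in 1 Tip60cKO and 2 control lists. The summed score ranged from 0 to 73.2 in Tip60cKO libraries for the inhibitory list, from 0 to 70.3 for the endothelial list, from 0 to 72.5 for the microglia list, from 0 to 134 for the astrocyte list and from 94.7 to 97.2 for the oligodendrocyte list. In control libraries it was 0 throughout for the inhibitory and endothelial lists, and ranged from 0 to 78.2, from 65.7 to 155 and from 95.4 to 98.5 for the others. Of the inhibitory markers, Slc32a1 had a TSS peak in 2 and Gad2 in 1 Tip60cKO list, neither in a control list, and Gad1 had none. P2ry12 was the one microglia marker with any peak, in 1 Tip60cKO and 4 control lists, with a difference of -44.1 ± 19.4 (SE), an unadjusted p of 0.0482 and an adjusted p of 0.419 by limma. No peak in any list was found at 1 of 2 endothelial, 2 of 4 astrocyte and 3 of 4 oligodendrocyte markers. The part of these cell types in the results was not tested. Kat5, which encodes TIP60, had a TSS peak in every library, with a rank score of 94.8 ± 5.1 (SD, n = 5) in Tip60cKO and 97.6 ± 2.1 in control libraries. The strongest peak at the gene had its summit inside the floxed part of Kat5, placed from the start codon by the distances in the study's methods, in 10 of 10 libraries. Its pileup per 1000000 tags was 0.998, 0.948, 0.991, 1.03 and 0.744 in Tip60cKO and 1.09, 1.33, 1.32, 1.42 and 1.21 in control libraries, without overlap (exact permutation p = 0.00794). Its fold enrichment was 7.11 ± 1.3 (SD, n = 5) and 9.03 ± 0.79, with overlap (exact permutation p = 0.0317). The ratio of the mean pileups was 0.739, while the median ratio was 0.834 over 13004 genes with a TSS peak in all lists, of which 9.96% were likewise lower without overlap. The presence of this peak thus did not separate the genotypes, and nuclei that kept the floxed alleles cannot be told apart from those that lost them.

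Peak heights of separate lists are not on a common scale, so each peak was placed by rank. The strongest peak within 2 kb of the annotated TSS, by fold enrichment over background, was given its percent rank among the windows of all genes in that library, here called the rank score, and a window with no peak scored 0. The lowest score that a window with a peak took was between 65.2 and 72.0, depending on the library. A score of 0 therefore stands far below the next possible value, and the SD of a gene with peaks in some lists only is large.

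H4K12ac at imprinted promoters was divided. Of the 47 genes, 13 had a TSS peak in all 10 lists, 19 in 2 to 9, 2 in 1 list only and 13 in none. Among the 39 protein-coding members, 51.8% ± 2.1 (SD, n = 5) had a TSS peak in a control library and 50.3% ± 6.9 in a Tip60cKO library, against 57.3% ± 0.87 and 54.9% ± 3.0 of all 21938 protein-coding genes. Peaks in every list were found at 12 of these 39 members (30.8%), against 44.0% of protein-coding genes, and peaks in no list at 11 (28.2%), against 34.7%.

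**Figure D1:**
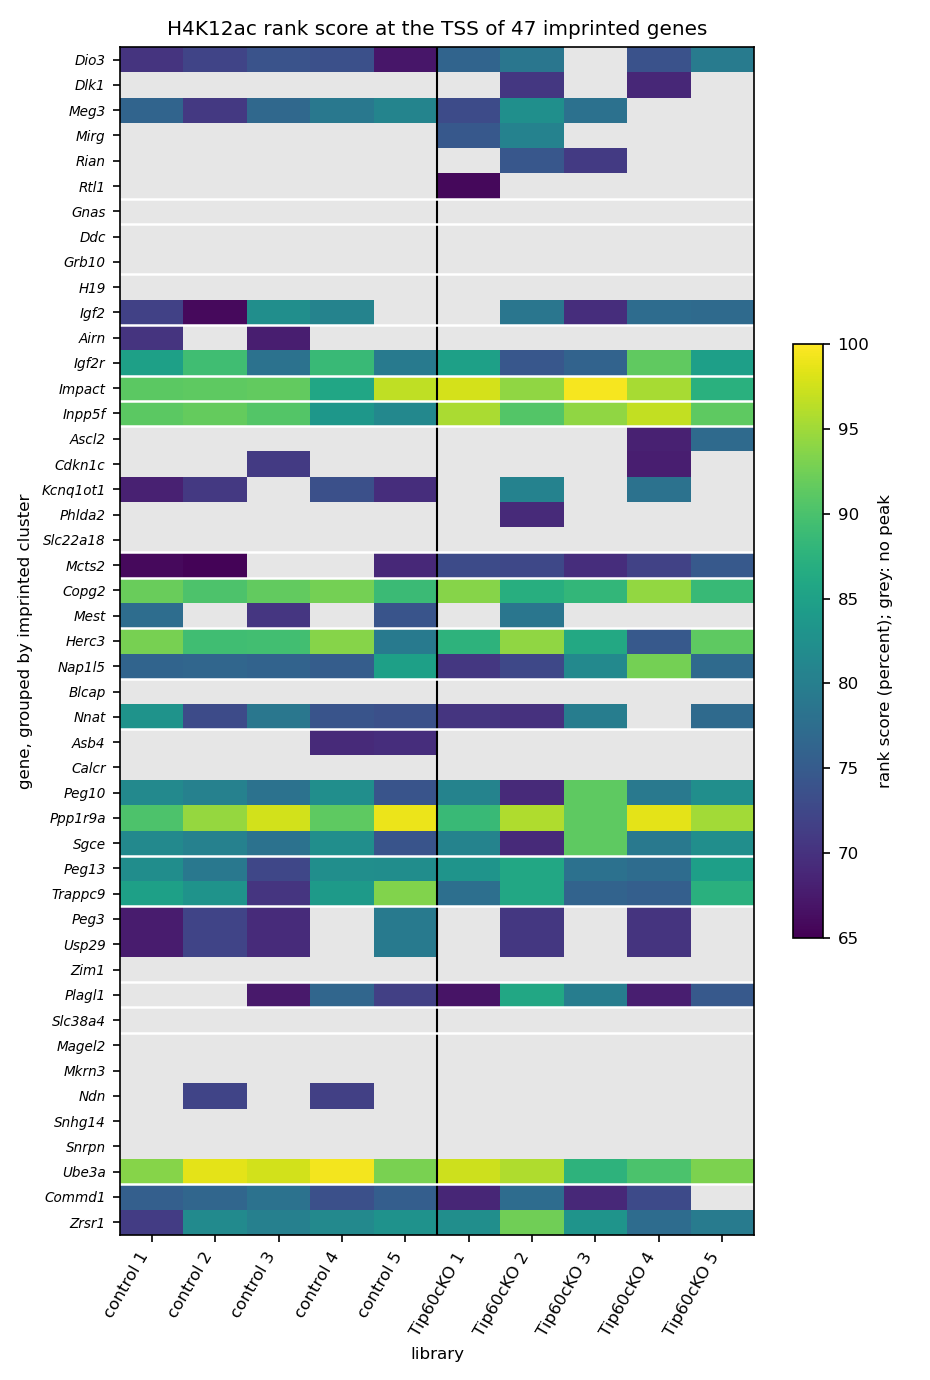
Rank score (percent, colour) of H4K12ac at the TSS of each of the 47 imprinted genes (rows, grouped by cluster between white lines) in the 5 control and 5 Tip60cKO libraries (columns); grey marks a window with no peak. Of the 47 rows, 13 are filled in all 10 libraries, 13 are grey throughout, and the grey cells of the others fall in both genotypes.

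By the score of the main TSS window, the strongest imprinted promoters in control libraries were those of Ube3a, of Ppp1r9a (neurabin), an actin-binding protein of synapses, of Impact, an inhibitor of the stress kinase GCN2, and of Copg2, a coat protein of transport vesicles. Ube3a (chr7:59228750-59311536, plus strand) scored 93.6, 98.5, 97.6, 99.4 and 92.9 in the control libraries and 97.3, 95.9, 87.6, 90.1 and 93.1 in Tip60cKO. Its groups overlapped, and the difference of -3.65 ± 2.47 (SE) had an adjusted p of 0.584 by limma, and it ranged from -4.79 to -2.35 when 1 library was left out. Ppp1r9a scored between 90.2 and 98.9 in control and between 88.8 and 98.6 in Tip60cKO libraries. Copg2 ranged from 88.8 to 92.7 and from 86.9 to 94.3, and Impact from 85.7 to 96.7 and from 87.2 to 99.5. The next in order were Herc3, a HECT domain ubiquitin ligase, at 88.9 ± 5.6 in control libraries, Inpp5f, an inositol phosphatase, at 87.7 ± 4.9, Igf2r, the receptor that clears IGF2, at 84.1 ± 5.1, and Trappc9, a subunit of a vesicle tethering complex, at 83.1 ± 8.3. These neighbouring means differed by less than their SD.

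No imprinted promoter was called between the genotypes. A TSS window was tested where at least 2 lists had a peak, which 32 members passed, and 0 of the 32 had an adjusted p below 0.05 by limma, beside 0.157% of 21672 genes called lower in Tip60cKO and 0.0784% called higher. At an unadjusted p below 0.05 the count was also 0 of 32, beside 11.8% of all genes tested. The median difference was -0.68 over the 32 and -0.69 over all genes tested, but the first ranged from -3.96 (without Tip60cKO 2) to -0.22 (without control 3) when 1 library was left out. A window that passed with peaks in 1 genotype only has a sign that the filter fixed, as for Dlk1, Rian, Mirg and Ascl2 (Tip60cKO only) and Airn, Asb4 and Ndn (control only). Of the 25 members with a peak in both genotypes, 15 differences were below 0 and 10 above (40.0%, against 44.6% of 20550 such genes). The 13 members with a peak in every list differed by -3.65 to 6.03, 6 of them below 0 and 7 above. Peg10 and Sgce share a window, as do Peg3 and Usp29, so that the 32, 25 and 13 members stand for 30, 23 and 12 separate windows.

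**Figure D2:**
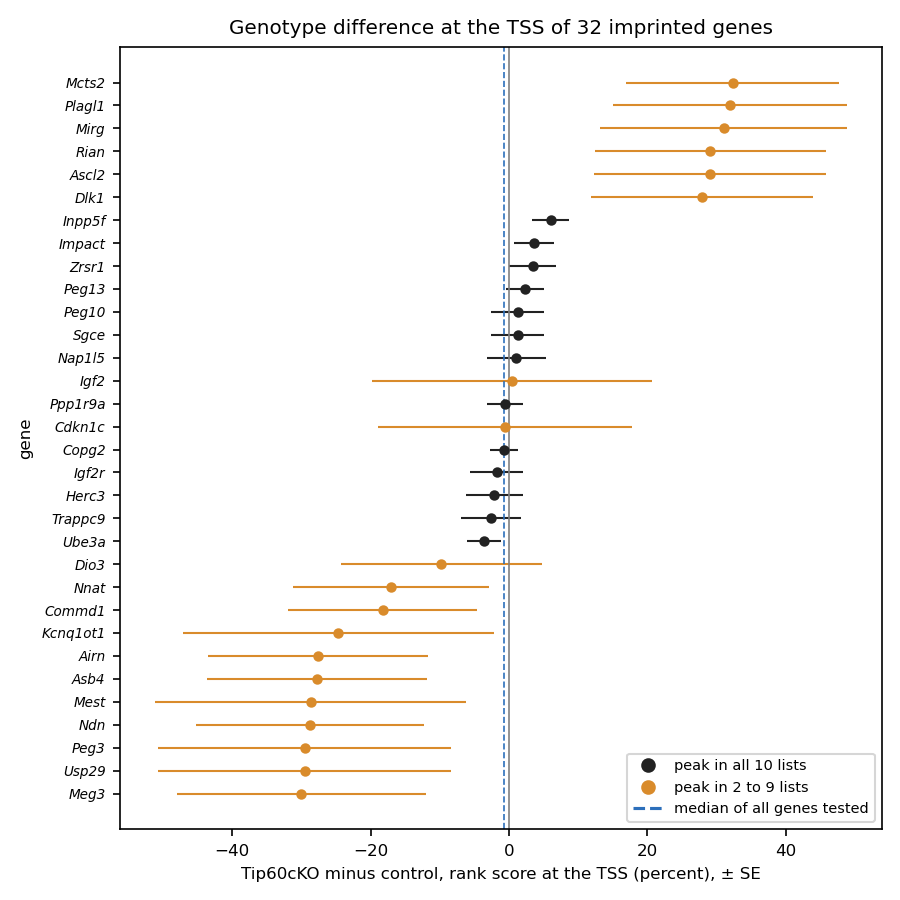
Difference in TSS rank score, Tip60cKO minus control (percent, x axis; bars are SE from limma, n = 5 and 5), of the 32 imprinted genes tested; black points had a peak in all 10 lists, orange points in 2 to 9, and the dashed line is the median of all genes tested, -0.69. The black points lie between -3.65 and 6.03, and the orange points spread on both sides of 0 with wider bars.

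Mcts2, a retrogene copied from the X-linked translation factor gene Mcts1 into an intron of H13, was the one member whose scores did not overlap. Its TSS (chr2:152687035-152687946, plus strand) scored 73.0, 72.5, 69.6, 71.9 and 74.8 in the Tip60cKO libraries and 65.9, 65.3, 0, 0 and 69.0 in control. All 5 Tip60cKO lists had a peak there and all 5 scores stood above every control score, but 2 control lists had none. The difference of 32.3 ± 15.4 (SE) had an adjusted p of 0.466 by limma, and the two-sided exact permutation test gave the smallest p that 5 against 5 libraries allow, 0.00794. Scores that did not overlap with Tip60cKO higher were found at 1.93% of all genes tested, and with Tip60cKO lower at 1.62%, of which none was a member. Inpp5f had the smallest p by limma of the members at the TSS, with 91.1, 91.8, 90.7, 83.5 and 81.4 in control and 95.6, 90.6, 94.2, 96.8 and 91.3 in Tip60cKO libraries. These overlapped by a narrow margin, and the difference of 6.03 ± 2.67 had an adjusted p of 0.424. Plagl1, a zinc finger regulator of growth, had a peak in 5 Tip60cKO and 3 control lists, with an adjusted p of 0.503.

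The promoters of the imprinted genes are shown for the 4 whose windows the text turns on, from the RefSeq promoter table for GRCm38.p6, each 250 bases before the start to 50 after it. Mcts2 is shown for the scores above, Inpp5f for its main start, and Snrpn and Blcap for starts away from the annotated 5′ end that are described next. Capitals mark TGCCGC, the letters bound by the imprint protector ZFP57 when methylated, or CCATNTTG, the YY1 motif, on either strand.
Mcts2, chr2:152686898-152687197, plus strand: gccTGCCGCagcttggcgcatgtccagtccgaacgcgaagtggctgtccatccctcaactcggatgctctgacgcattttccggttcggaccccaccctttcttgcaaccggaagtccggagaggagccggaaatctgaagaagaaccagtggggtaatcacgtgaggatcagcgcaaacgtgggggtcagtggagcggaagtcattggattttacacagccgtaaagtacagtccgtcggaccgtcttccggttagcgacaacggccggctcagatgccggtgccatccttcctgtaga
Inpp5f, chr7:128611115-128611414, plus strand: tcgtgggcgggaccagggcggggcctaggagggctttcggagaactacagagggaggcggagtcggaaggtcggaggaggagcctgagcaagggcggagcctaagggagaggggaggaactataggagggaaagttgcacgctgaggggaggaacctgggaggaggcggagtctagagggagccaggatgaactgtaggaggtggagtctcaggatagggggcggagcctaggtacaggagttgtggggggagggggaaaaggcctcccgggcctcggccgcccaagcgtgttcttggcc
Snrpn, chr7:60005150-60005449, minus strand: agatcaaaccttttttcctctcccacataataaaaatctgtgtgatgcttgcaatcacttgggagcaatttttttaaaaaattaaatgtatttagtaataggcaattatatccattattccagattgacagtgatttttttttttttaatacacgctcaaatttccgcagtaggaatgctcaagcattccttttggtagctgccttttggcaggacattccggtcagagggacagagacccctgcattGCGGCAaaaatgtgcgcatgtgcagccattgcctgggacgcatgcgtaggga
Blcap, chr2:157566312-157566611, minus strand: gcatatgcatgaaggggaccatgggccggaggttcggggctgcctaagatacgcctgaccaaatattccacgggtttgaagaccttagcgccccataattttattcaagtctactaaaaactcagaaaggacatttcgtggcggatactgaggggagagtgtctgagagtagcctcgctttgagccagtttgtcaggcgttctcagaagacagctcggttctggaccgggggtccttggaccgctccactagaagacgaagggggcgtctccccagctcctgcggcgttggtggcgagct

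TGCCGC occurred once in the Mcts2 and once in the Snrpn window and in neither of the others, and CCATNTTG in none of the 4. Mcts2 was the richest of the 4 in CpG, with 25 CpGs and an observed over expected ratio of 0.991, while the ratio was 0.591 for Inpp5f, 0.574 for Snrpn and 0.751 for Blcap. The table held 58 windows of 39 members. Of these, 14 (24.1%) held TGCCGC, against 11.6% of 32817 windows of all genes, and 2 (3.45%) held CCATNTTG, against 5.05%. The median CpG ratio was 0.591 in member windows and 0.383 in all. Both searches covered both strands, and a match is a run of letters, not a bound site.

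Several members with no peak at the annotated 5′ end carried a strong peak at another start. Alternative starts farther than 3 kb from the main TSS were scored in windows of 1 kb on either side, ranked among the alternative windows of all genes, where the lowest score of a window with a peak was 74.9 to 85.7. Blcap, a regulator of cell growth whose main TSS window had no peak in any list, scored 97.4, 96.3, 98.7, 98.9 and 98.6 in control and 99.3, 97.1, 98.8, 99.4 and 99.9 in Tip60cKO libraries at a start 4.91 kb into the gene. Gnas, which encodes the stimulatory G protein subunit and several overlapping imprinted transcripts, scored 98.9 ± 0.85 in control and 98.2 ± 1.5 in Tip60cKO libraries at a start 45.7 kb downstream. Both lay near the top of the scale in all 10 libraries. Snrpn, a splicing protein gene, had its peak 135 kb downstream of the annotated end, where Snurf also starts. It scored 83.7, 86.5, 87.6, 88.9 and 90.2 in control and 84.97, 94.8, 80.5, 88.6 and 0 in Tip60cKO libraries, the 0 being Tip60cKO 5. Grb10, an adaptor that restrains insulin signalling, had a peak 12.0 kb inside in 5 control and 4 Tip60cKO lists, and Mest, a hydrolase-like gene whose main TSS had a peak in 3 control lists and 1 Tip60cKO list, 14.5 kb inside in 5 and 3.

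**Figure D3:**
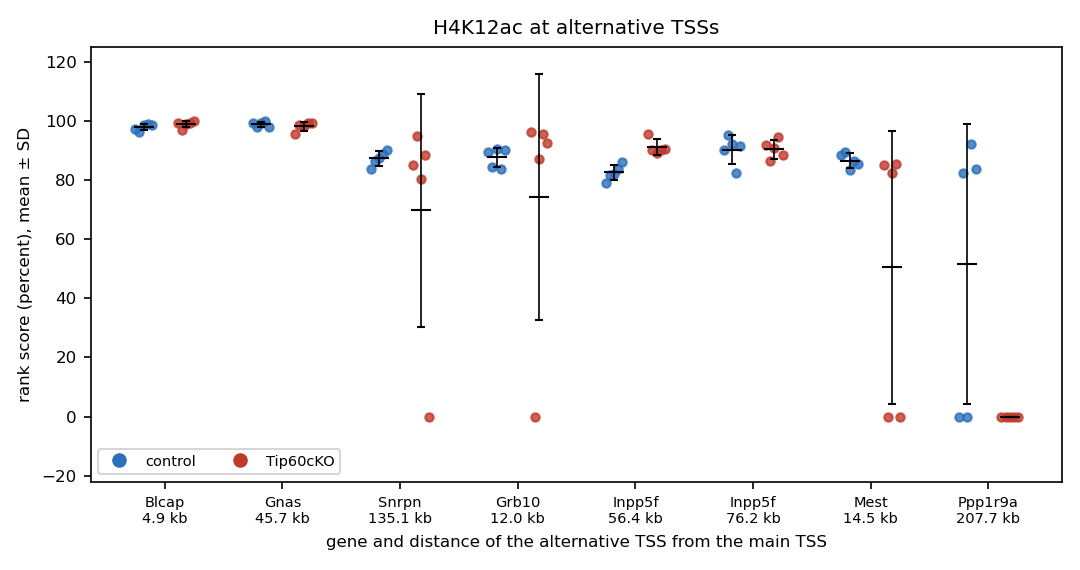
Rank score (percent) at 8 alternative TSSs of imprinted genes, labelled with their distance from the main TSS; points are libraries (blue control, red Tip60cKO), and black bars give the mean ± SD of 5. Blcap and Gnas stand above 95 in every library, the first Inpp5f start shows all red points above the blue points, and points at 0 have no peak.

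The members had 100 alternative windows in 29 genes, of which 64 had no peak in any list and 13 a peak in 1 list. Of the 23 windows tested, from 13 genes, 0 were called by limma, beside 0.177% of 7909 windows called lower and 0.0632% called higher. An unadjusted p below 0.05 was reached by 3 of 23, against 9.15% of all. Among the 19 windows with a peak in both genotypes, 9 differences were below 0 and 10 above (52.6%, against 43.6% of 7036 such windows). An unadjusted p below 0.05 by limma was reached in 2 of these 19 with Tip60cKO higher (10.5%, against 2.03%) and in 0 with Tip60cKO lower (against 3.82%). The first of the 3 was a start of Inpp5f 56.4 kb downstream of its main TSS, which scored 79.0, 81.9, 82.1, 83.7 and 86.1 in control and 95.7, 90.2, 89.1, 90.3 and 90.5 in Tip60cKO libraries. The groups did not overlap there, as at 1.02% of all alternative windows in that direction, and the difference of 8.57 ± 2.27 (SE) had an adjusted p of 0.192. Another start of Inpp5f, 76.2 kb downstream, scored 90.3 ± 4.8 in control and 90.4 ± 3.1 in Tip60cKO libraries. The second was a start of Ppp1r9a 208 kb inside the gene, with a peak in 3 control lists and no Tip60cKO list, at an adjusted p of 0.446, its sign being fixed by the filter. The third was a start in Snhg14 at 101 kb, with a peak in 4 Tip60cKO lists and 1 control list, at an adjusted p of 0.535. The last lies in the repeated array described below.

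Some members with no main TSS peak had none anywhere. H19, the maternally expressed growth-restraining RNA, Slc22a18, Zim1, Calcr, Magel2 and Mkrn3 had no peak from 2 kb before the start to the 3′ end in any list. Ddc and Slc38a4 had no TSS peak but peaks inside the gene. Zero here means no peak at the q threshold of the study, 0.1, and not absence of the mark.

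Genes that lie one inside another were compared at their starts, and 2 of 4 pairs differed. Paternally expressed transcripts that start within an intron of a host gene, or against it, were set beside their host in the same mouse. Of 7 such pairs, 3 have a direction that missing peaks largely fix and are given without a test. Nnat, a membrane protein of the developing brain, had a TSS peak in 9 of 10 lists and its host Blcap in 0. Kcnq1ot1, the paternal silencing RNA, had one in 6 of 10 lists and Kcnq1 in 0. Airn, the antisense RNA of the Igf2r cluster, had one in control 1 and control 3 only, and Igf2r in all 10.

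The 4 pairs in which each gene had a peak in at least 5 lists were tested by exact two-sided sign flips over the mice with a peak at both genes, adjusted over the 4, a choice made after the values were seen. Zrsr1, a retrogene for a splicing factor, exceeded Commd1, a regulator of copper handling, by 7.26 ± 6.4 (SD, n = 9 mice, adjusted exact p = 0.0313), with 8 of 9 mice in that direction. Mcts2 stood below H13, which encodes an intramembrane protease, with a difference of -14.97 ± 5.3 in 8 of 8 mice (adjusted exact p = 0.0313). Nap1l5 and Herc3 differed by -9.50 ± 12.4 (adjusted exact p = 0.0703) and Peg13 and Trappc9 by -1.11 ± 4.54 (exact p = 0.516), each over 10 mice. With 1 library left out, the adjusted exact p ranged from 0.0313 to 0.0625 in both the Zrsr1 and the Mcts2 pair, and rose above 0.05 without Tip60cKO 1, 2 or 3 or control 2 or 5, and for Zrsr1 also without control 4. Their differences ranged from 6.29 to 8.72 and from -16.2 to -14.2. Nap1l5 came below 0.05 without Tip60cKO 4 (adjusted exact p = 0.0313).

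Over all 10 mice with a missing peak scored 0, and adjusted over all 7 pairs as first designed, the differences were 14.5 ± 23.6 for Zrsr1 (adjusted exact p = 0.0137) and -28.8 ± 29.5 for Mcts2 (adjusted exact p = 0.00684). With 1 library left out, they ranged from 7.26 to 16.6 for Zrsr1 and from -31.3 to -22.5 for Mcts2. By genotype, the Zrsr1 pair differed by 25.3 ± 30.6 in Tip60cKO and 3.63 ± 5.1 in control mice, and the Mcts2 pair by -14.5 ± 5.9 and -43.1 ± 37.6. Among mice with both peaks these means were 11.8 and 3.63, and -14.5 and -15.8. The genotypes did not pass the threshold in any of the 4 pairs (adjusted exact permutation p of 0.127 for Zrsr1, 0.233 for Mcts2, 0.175 for Peg13 and 0.706 for Nap1l5). Choosing the strongest start of each gene in place of the main TSS gave a difference of -26.8 between Nnat and Blcap, and brought the Zrsr1 pair to -0.45, Blcap having the strong inner start given above and Commd1 one in the window of the Zrsr1 start itself.

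**Figure D4:**
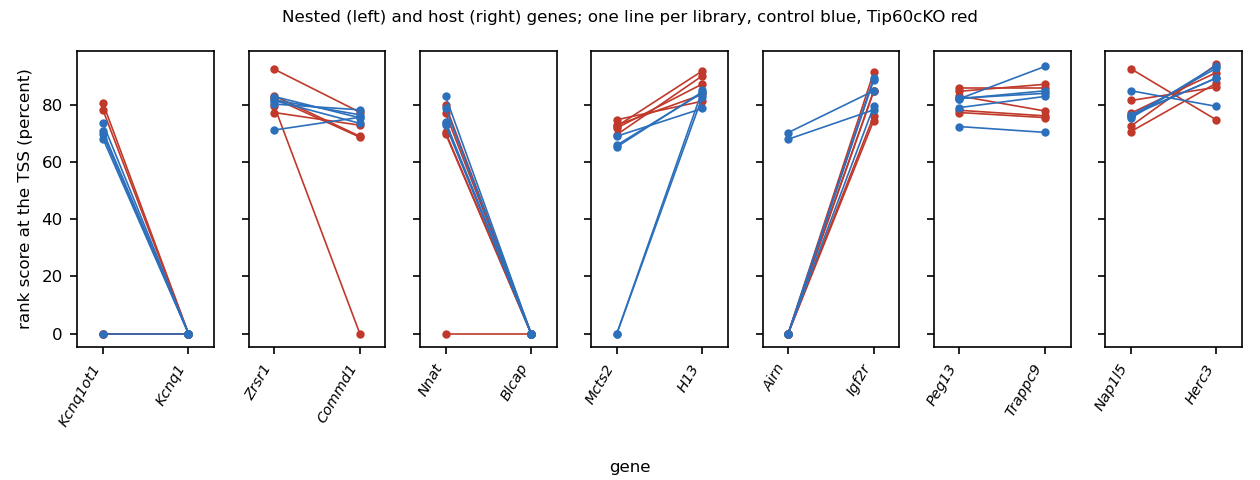
Rank score at the TSS (percent) of 7 nested genes (left of each panel) and their hosts (right), one line per library (blue control, red Tip60cKO). Lines fall to 0 at Kcnq1 and Blcap, rise from Airn and Mcts2 to their hosts in all 10 libraries, and cross between Peg13 and Trappc9.

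Paternally expressed members held TSS differences in either direction, also among those with a peak in both genotypes. Of 24 paternally expressed genes, 18 were tested, 10 with a difference above 0 and 8 below, with a median of 0.73. Of 17 maternally expressed genes, 12 were tested, 3 above and 9 below, with a median of -1.27. The other members were 4 whose expressed allele depends on the isoform and 2 where it depends on the tissue. These counts include the 7 genes whose sign the filter fixed. Among these 7 were Ascl2, Rian and Mirg, the only maternally expressed genes above 0. The maternally expressed genes with a peak in both genotypes were Cdkn1c, Ppp1r9a, Copg2, Ube3a, Meg3, Commd1, Igf2r and Trappc9, all below 0. Over all genes with such peaks, 11383 of 20550 were below 0. Cdkn1c had a peak in 1 list of each genotype, and Ppp1r9a, Copg2 and Igf2r changed sign when single libraries were left out. Of the paternally expressed genes with such peaks, Igf2, Peg10, Sgce, Plagl1, Zrsr1, Mcts2, Peg13, Impact and Nap1l5 were above 0. Kcnq1ot1, Peg3, Usp29, Mest, Dio3 and Nnat were below. No member was called, and the difference between the classes was not tested. The expressed allele of each member was taken from the member list and was not checked in these neurons. The lists cannot say from which parental copy a tag came, since alleles were not distinguished.

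In the Dlk1-Dio3 cluster of chromosome 12, TSS peaks of the Notch ligand-like Dlk1, the retrotransposon-derived Rtl1 and the maternal RNAs Rian and Mirg appeared in Tip60cKO lists only, in 2, 1, 2 and 2 of 5. Meg3, the maternal RNA at the head of the cluster, scored 76.2, 70.7, 76.8, 79.0 and 80.8 in control and 73.0, 82.5, 78.1, 0 and 0 in Tip60cKO libraries. Dio3, which inactivates thyroid hormone, had a peak in 5 control and 4 Tip60cKO lists. Over the 6 genes, the control libraries had 5 to 9 peaks and the Tip60cKO libraries 15, 31, 12, 9 and 3, so the numbers overlapped. Each of Dlk1, Rian and Mirg had an adjusted p of 0.503 by limma, as had Ndn, an anti-apoptotic MAGE protein, Airn and Asb4, whose peaks were in 2 control lists and no Tip60cKO list.

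Peg3, a zinc finger gene of maternal behaviour, shares its start with Usp29, and Sgce, a sarcoglycan, with Peg10, a retrotransposon-derived placental gene, so each pair had a single value. Peg3 and Usp29 had a peak in 4 control and 2 Tip60cKO lists, and Peg10 and Sgce in all 10, at 79.3 ± 3.3 in control and 80.5 ± 7.9 in Tip60cKO libraries. Igf2, the growth factor, had a peak in 4 of 5 lists of each genotype. In the Kcnq1ot1 cluster, the cell cycle inhibitor Cdkn1c had a peak in 1 list of each genotype, and Ascl2 and Phlda2, both placental regulators, in 2 and 1 Tip60cKO lists and no control list.

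The one place in the imprinted genes where regions were called was the body of Snhg14, a host transcript of small nucleolar RNAs (snoRNAs). Peaks of the 10 lists were merged into regions, each scored by the rank of its strongest peak (at the least 36.5 to 69.6 where there was one), and the 144781 regions that 2 or more lists shared were tested. Over all of them 0.476% were called lower in Tip60cKO and 0.0863% higher, by limma. The members held 268 regions, of which 94 lay in Snhg14 (chr7:59307924-59975759, minus strand), and 5 were called, all 5 in Snhg14 and all higher in Tip60cKO. Leaving out 1 library gave 5 to 10 calls, with 10 without Tip60cKO 5 and 8 without control 3, and without control 2 there was 1 lower call, in Copg2. A part of these calls had no control peak, as given with the settings at the end. Of the 94, 21 had no control peak and 1 had no Tip60cKO peak, which fixes the sign, and 2 of the 5 calls were among the 21. In the other 72, with a peak in both genotypes, 65 differences were above 0 (90.3%, against 45.2% of 113901 such regions) and the median was 16.1, against -1.13. An unadjusted p below 0.05 was reached by 19 of the 72, all higher (26.4%, against 2.42% of such regions in that direction), 3 were called (against 0.0606% called higher), and scores did not overlap in 8, all higher (against 0.946%). Counting all 94, 28 reached that p, all higher, against 3.68% of all regions, and 10 did not overlap, against 0.783%. These 28 and 10 include 9 and 2 of the 21 regions with no control peak, whose direction the filter fixed. Neighbouring regions of one array are not independent. The rank of a weak peak also depends on the length of its list, and the lowest score of a region with a peak was 39.8 to 69.6 in Tip60cKO and 36.5 to 56.1 in control libraries, so the size of these differences is not free of list length, and the regions of the genome were not matched for strength. With the same number of strongest peaks from every list, where the lowest score was 67.9 ± 1.1 (SD, n = 5) in Tip60cKO and 65.7 ± 0.87 in control libraries, 46 regions of Snhg14 were tested and 28 of them had no control peak. Of the 18 with a peak in both genotypes, 14 differences were above 0 (77.8%, against 47.3% of 65626 such regions), 1 reached an unadjusted p below 0.05 (5.56%, against 2.70%) and 0 were called by limma. The median of the 18 was 13.2, against -0.36. Of the 28 whose sign was fixed, 22 reached that p and 4 were called, which were all the calls in the members under this setting.

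In the annotation Snhg14 holds a pair of tandem snoRNA arrays. One, from chr7:59673461-59923122, had 71 copies, 17 of them named as members of the Snord116 family that is deleted in Prader-Willi syndrome, with a median length of 94 bases and a median spacing of 2528 bases. The other, from chr7:59344073-59619095, had 134 copies of 79 bases at a spacing of 1871. With a margin of 2.5 kb, 92 of the 94 regions, and all 5 called, lay in the 94-base array, and 2 lay in the other. The main TSS of Snhg14 had no peak in any list, in the GENCODE model used here.

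The snoRNA copies at the called regions show how alike the array is. They were read from the GRCm38.p6 genome on the minus strand, with capitals for the C box letters TGATGA and the CTGA of the D box near the 3′ end.
Gm23047, chr7:59733770-59733863: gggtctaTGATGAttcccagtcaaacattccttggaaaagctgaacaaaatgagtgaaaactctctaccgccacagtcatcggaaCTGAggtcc
Gm25210, chr7:59769138-59769231: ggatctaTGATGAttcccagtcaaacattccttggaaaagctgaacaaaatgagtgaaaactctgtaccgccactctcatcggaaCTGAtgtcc
Gm26246, chr7:59789331-59789424: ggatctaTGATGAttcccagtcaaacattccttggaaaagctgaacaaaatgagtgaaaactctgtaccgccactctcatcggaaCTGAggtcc

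The third sequence was the most frequent, with 30 identical copies among the 71, and Snord116l17, the copy nearest to the fifth called region, was one of them. The first was 4 edits and the second 1 edit away from it, and 70 of 71 copies lay within 5 edits. Words of 50 bases, the length of the tags, were then counted in the genome on both strands. In the 92 array regions, 86.8% of words had at least 1 further exact copy, all of them within the array, against 1.43% in the 174 regions of the other members. Tags from one copy could thus be placed in another, and how the aligner treated tags with several matches is not given in the sources used here. Which copy carried a peak is therefore uncertain, and counts over the whole array are given below.

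At the region chr7:59733177-59734243 the scores were 89.5, 85.2, 83.5, 93.9 and 92.6 in Tip60cKO and 47.5, 55.5, 47.4, 57.1 and 48.0 in control libraries. Every library had a peak, every Tip60cKO score was higher, and the difference was 37.8 ± 5.43 (SE, adjusted p = 0.00953 by limma). The region chr7:59768578-59769174 scored 75.3, 56.8, 81.5, 69.6 and 70.4 in Tip60cKO and 0 in all 5 control libraries (adjusted p = 0.000365), so that its sign was fixed by the filter, as for the last of the 5 below. Its neighbour chr7:59769735-59770614 had a peak in 5 Tip60cKO lists and 1 control list (difference 72.1 ± 8.97, adjusted p = 0.00325). The same held for chr7:59789097-59789989 (66.8 ± 10.2, adjusted p = 0.0156). At chr7:59862498-59862855 the Tip60cKO libraries scored 40.2 to 70.5, with no control peak (53.9 ± 6.43, adjusted p = 0.00244). Regions beginning at 59781126, 59796217 and 59894060 had a peak in all 5 Tip60cKO lists and 2 control lists each, with adjusted p of 0.120, 0.0838 and 0.0804. The calls depended on the fit, since 1 region in the members was called with a replicate block and 0 with a robust mean-dependent prior.

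Counted over the array, control libraries 1 to 5 had 45, 63, 29, 24 and 42 peaks, and Tip60cKO libraries 115, 80, 93, 87 and 36. These counts overlapped between the genotypes (exact permutation p = 0.0317), and the low Tip60cKO value was that of the library with the shortest list. Per 10000 peaks of the list this was 3.59, 4.79, 2.48, 2.56 and 3.08 in control and 8.49, 7.07, 8.16, 8.60 and 5.60 in Tip60cKO libraries. The groups did not overlap, with means of 3.30 ± 0.94 and 7.58 ± 1.3 (SD, n = 5), a ratio of 2.30 and an exact permutation p of 0.00794, the smallest possible. No share of other genes with such peak counts was computed. The quantity was chosen after the regions had been seen in these same lists, so its p is not support apart from them. It was higher by 4.29 in the libraries named as lane 7 (replicates 1 to 3) and by 4.28 in those of lane 8, and by 4.78 without Tip60cKO 5. With the same number of strongest peaks taken from every list the means were 1.12 ± 0.52 and 5.42 ± 1.1, a ratio of 4.83. The 79-base array had 2 to 6 peaks in Tip60cKO and 0 to 1 in control libraries (exact permutation p = 0.00794), and the same limits hold for it.

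**Figure D5:**
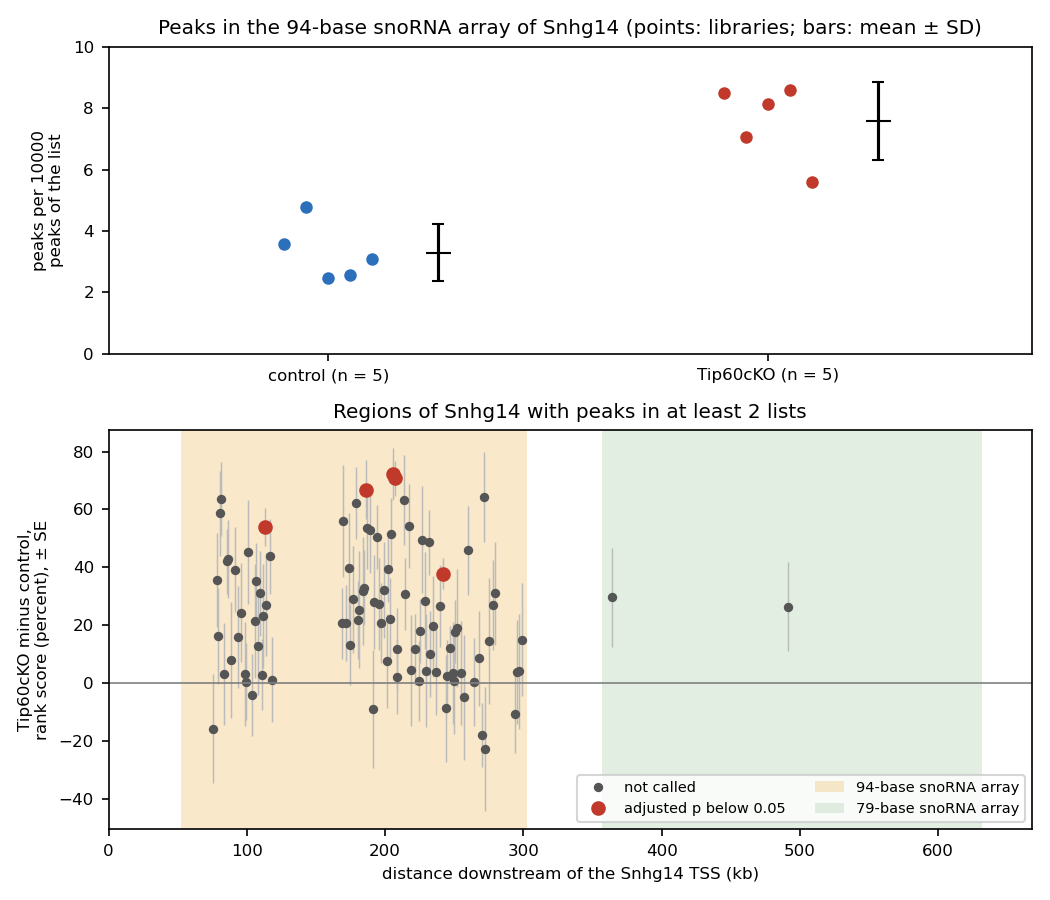
Top, peaks in the 94-base snoRNA array of Snhg14 per 10000 peaks of each list, with points for libraries and bars for the mean ± SD of 5; the control points lie between 2.48 and 4.79 and the Tip60cKO points between 5.60 and 8.60. Bottom, difference in rank score of the 94 Snhg14 regions (Tip60cKO minus control, percent, bars SE) against distance from the TSS in kb, with the arrays shaded; 86 points lie above 0, of which 21 are regions with no control peak, and the 5 red points are the called regions.

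The array peaks were weak ones. Their median percentile in the list was 29.2 ± 6.7 in Tip60cKO and 18.1 ± 5.7 in control libraries, and their median fold enrichment 3.26 ± 0.17 and 2.94 ± 0.17, while the median pileup was 19.9 ± 2.2 and 19.9 ± 1.5. The local background of the peaks, relative to the genome-wide level of the library, had a median of 1.57 ± 0.060 in Tip60cKO and 1.69 ± 0.076 in control libraries (exact permutation p = 0.0159). In regions with a peak in both genotypes, the median log2 ratio of this background, Tip60cKO over control, was -0.05 over 72 array regions and -0.06 over 113901 regions of the genome. The share of all peaks whose background was the genome-wide level was 44.9 to 57.8% in Tip60cKO and 26.9 to 33.97% in control libraries. The part of the background in the array counts was not tested. In a sample of every 10th region outside the array, counting those with a peak in both genotypes, 149 had over 50% repeated words and 11180 did not. Of the 149, 4.70% had an unadjusted p below 0.05 with Tip60cKO higher, and the median difference was 0.60. Of the 11180, 2.14% did, with a median of -1.32, and of the 72 array regions 26.4%, with a median of 16.1. The part of repeated sequence in the array counts was not tested.

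Within the unit of the array the peaks were spread around the snoRNA. Summits were counted by their distance from the 5′ end of the nearest snoRNA copy. In Tip60cKO libraries 17.3% of 411 summits lay in the 250 bases before it and 17.0% in the 250 after, and in control libraries 30.5% and 16.3% of 203. As tags may be placed in other copies, these are positions in the repeat, not in one gene.

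Outside Snhg14 the bodies of the imprinted genes showed no called region. Of 174 regions, 0 were called by limma. Of the 138 with a peak in both genotypes, 6 reached an unadjusted p below 0.05 with Tip60cKO lower (4.35%, against 4.74% of all such regions) and 2 with Tip60cKO higher (1.45%, against 2.42%), and the median difference was -1.03, against -1.13. These shares lay near or below the background. The nearest to a call was in Copg2 (chr6:30802835-30803590), with 45.5, 66.6, 65.5, 58.5 and 89.9 in Tip60cKO libraries and 38.2 in control 5 alone (difference 57.6 ± 10.6, adjusted p = 0.0516). It lay 93.6 kb inside the gene. The adjoining region, chr6:30803642-30804103, went the other way, with a peak in 4 control lists and no Tip60cKO list (-41.0 ± 11.0, adjusted p = 0.151, the sign fixed by the filter). The first of these passed the threshold with lane as a covariate (adjusted p = 0.0433) and among regions found in 5 or more lists (0.0225), and also without Tip60cKO 1 (0.0341) and without control 5 (0.00882). Control 5 held its one control peak, so without that library its sign was fixed by the filter. The second passed without control 2.

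Gene body coverage, the share of the gene from 2 kb after its start that peaks cover, was lower in Tip60cKO for 16 of 27 members with any and higher for 11. Trappc9 went from 2.77% ± 0.25 in control to 1.74% ± 0.68 in Tip60cKO libraries and Impact from 3.64% ± 0.66 to 1.67% ± 1.0, each without overlap (exact permutation p = 0.00794). Such lower coverage without overlap was found at 3.96% of 12823 genes, and 74.2% of all genes had a lower mean, with shorter lists in some Tip60cKO libraries. In Snhg14 coverage was 4.63% ± 2.0 in Tip60cKO and 2.04% ± 0.90 in control libraries (exact permutation p = 0.0397).

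Genes around the imprinted clusters and genes that keep imprints were read the same way. Of 20 further genes of imprinted domains, 6 had a TSS peak in all lists, 12 had none, and 0 of the 7 tested were called or reached an unadjusted p below 0.05. Of 11 genes of imprint maintenance, 0 of 7 tested were called or reached that p. Zfp57, which protects imprints from demethylation, scored 78.1 ± 7.2 in Tip60cKO and 63.5 ± 35.8 in control libraries, with 1 control list lacking a peak. Zfp445, its partner in this role, scored 92.1 ± 8.0 and 88.3 ± 7.1, and Ctcf, the insulator protein that separates H19 from Igf2, 94.2 ± 3.1 and 96.7 ± 1.4.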

How the data were processed

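H4K12ac ChIP-Seq was measured in sorted neuronal nuclei of 5 Tip60cKO and 5 control mice, and the input was pooled into 1 library for each genotype. Tags of 50 bases were aligned by the authors to mm10 with STAR and freed of duplicates with samtools, and each library was given its own peak list by MACS 2.1.0.20140616 (q below 0.1, input of the same genotype as background). The deposited lists give a pileup (signal), a fold enrichment (ratio) and −log10 p and q values for each peak; per the file headers, the larger of ChIP and input was scaled to the smaller. The depth per library was 22864189 to 37923809 tags, and its part in the number of weak peaks was not tested.

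The members and gene lists were chosen with earlier results of these data known. Peaks were assigned to windows of GENCODE vM21 genes (2 kb on either side of the TSS, 1 kb for alternative TSSs) with Python 3.11, pandas and numpy, and rank scores were computed as percent ranks over all windows. Windows and merged regions that 2 or more lists shared were tested with limma 3.58.1 in R 4.3.3, with Benjamini-Hochberg adjustment over all of them, after a check on simulated data. Single values were tested by two-sided exact permutation (252 splits) and pairs by sign flips (at most 1024). The named members were those called, those with an unadjusted p below 0.05 at a TSS, those whose scores did not overlap, the 8 with the highest control score, those without a TSS peak, the host and nested pairs, and those with a region at p below 0.001; other members were chosen to fill out their cluster. Alternatives were other thresholds, rankings, windows, filters, priors, covariates, a replicate block and leaving out each library. Same-numbered mice were different animals, and p-values measure the spread between these mice.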

Additional observations from a re-analysis of the deposited data

Results flagged for a closer look

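The check covered 34 groups of 5 libraries, for a part of the named members and for the array count. Of these groups, 5 had a library far from the others (gap over range above 0.71). Chance flags about 1 group in 20 where scores have no gap. A missing peak scores 0, far below any other score, so that rate does not hold for groups with a missing peak. Commd1 had no TSS peak in Tip60cKO 5, a score of 0 where the other Tip60cKO libraries had 68.7 to 77.4. Nnat likewise had a score of 0 in Tip60cKO 4, and Kcnq1ot1 a score of 0 in control 3. Zrsr1 was low in control 1, at 71.2, and Nap1l5 was high in control 5, at 84.9. Outside the check, single libraries also scored 0 for Dio3 (Tip60cKO 3), Igf2 (Tip60cKO 1 and control 5) and Peg3 (control 4). No cause was tested for any of them.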

How the results depend on the processing

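The count of members called at the main or at an alternative TSS was 0 under every fitted setting, with each library left out and with a replicate block; without a model, 1 TSS window (Mcts2) and 1 alternative window (Inpp5f) had scores that did not overlap. The count of called regions in members was 5 as reported. It was 4 with equal numbers of peaks, 2 with ranking by pileup, 1 with the replicate block and 0 with the robust trend prior. It was 8 among regions found in 5 or more lists and 3 among regions with a peak in both genotypes. Without a model, the genotypes differed by 4 or 5 lists with a peak in 11 of 268 regions (1 of these lower). Scores did not overlap in 14 (2 of these lower), and 2 of the 14 had no control peak. Over all regions, 0.783% did not overlap with Tip60cKO higher. The share was not computed for the lower direction or for the rule on lists. Leaving out each library in turn gave 5 to 10 called regions, 10 without Tip60cKO 5 and 8 without control 3, and all were higher in Tip60cKO except 1 without control 2. Without Tip60cKO 5, 6 of the Snhg14 calls had no control peak, so that the filter fixed their sign, and 4 had a peak in both genotypes. These numbers were 2 and 6 without control 3, and 4 and 1 without control 2. Of the Snhg14 regions with a peak in both genotypes, the number at an unadjusted p below 0.05 was 1 of 18 with equal numbers of peaks, in place of 19 of 72, and 13 to 23 with each library left out. Deviations of same-numbered libraries correlated at -0.04 to 0.06, while 3 of 5 Tip60cKO libraries lay closest to their own number. These values do not decide whether the replicate numbers pair the libraries. The difference in array peaks per 10000 was 4.28 with the block, where 5 pairs cannot go below an exact p of 0.0625, and 4.03 to 4.78 with each library left out.

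The median difference of the tested members, -0.68, ranged from -3.96 to -0.22 with each library left out, the lowest being without Tip60cKO 2. Differences of single members, none of them called, changed sign in places. The larger ones were Kcnq1ot1, from -24.7 to 2.89 with equal numbers of peaks, and Commd1, from -18.3 to 2.60 with the strongest start. Ppp1r9a went from -0.57 to 0.55 and Copg2 from -0.77 to 1.06 with ranking by pileup, Herc3 from -2.16 to 0.32 with the strongest start, Nap1l5 from 1.04 to -13.1 with equal numbers of peaks, and Zrsr1 from 3.44 to -0.40 in a 1 kb window. With libraries left out, Commd1 ranged from -23.2 to -3.88 (the latter without Tip60cKO 5), Kcnq1ot1 from -38.8 to -16.7, Nnat from -22.2 to -2.20, Zrsr1 from 1.06 to 4.85, Impact from 2.14 to 5.45, Peg13 from 0.44 to 3.38, Trappc9 from -5.79 to -0.024, Ppp1r9a from -1.74 to 0.72, Copg2 from -1.76 to 0.090, Herc3 from -4.53 to 0.86, Igf2r from -4.04 to 0.18 and Nap1l5 from -2.39 to 3.10. Among the host pairs, over all 10 mice and adjusted over 7 pairs, the strongest start gave -0.45 for Zrsr1 and -26.8 for Nnat, and -12.4 for Nap1l5, which then passed the threshold, as it did with ranking by pileup (-9.73). Equal numbers of peaks gave 30.3 for Kcnq1ot1, whose host had no peak in any list. With libraries left out, the pairs ranged from 40.0 to 49.0 for Kcnq1ot1, from -12.5 to -8.15 for Nap1l5, which passed the threshold without Tip60cKO 4 (-12.5, adjusted exact p = 0.0164), and from -1.82 to 0.019 for Peg13. The causes were not tested. Settings for the array, the pairs, gene bodies and peaks in both genotypes were added after the data were seen.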
